A study of Vitis rotundifolia with 36 samples.

Results

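In berries of the muscadine cultivar Alachua, 40 gene models had transcripts in all 4 tissue layers at levels that no layer of Granny Val or Supreme reached. They were 40 of the 26394 models listed. The choice was made from measured values: each count was expressed per 1000000 counts of its library (CPM) and averaged over the libraries of each cultivar and layer. Among the 11845 models with at least 2 CPM in the lowest Alachua layer, the 40 with the largest ratio were taken. The ratio sets the lowest Alachua layer mean plus 0.1 CPM against the highest layer mean of Granny Val and Supreme plus 0.1 CPM. Differences between Alachua and the other cultivars are therefore a description of the choice and carry no test, except where the rule was applied to part of the libraries and read in the rest.

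The muscadine grape bears berries with a tough skin that slips from the pulp. In a grape berry the outer layers hold the cuticle, the wall-thickened skin cells and, in purple cultivars, the anthocyanin pigments, while the flesh inside stores sugars and acids. Genes of wax, cell wall and pigment synthesis are best known from the outer layers, and genes of sugar and acid transport from the flesh. The identifiers could not be paired with gene names or products (0 matched the gene table at hand), so no role is given for any model and the labelled layers were not checked against marker genes.

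Mature berries of Alachua (purple, thick skin), Granny Val (green, intermediate skin) and Supreme (purple, thin skin) were dissected into layers numbered 1 to 4 from the outside inwards, with 3 libraries of polyadenylated RNA for each of the 12 combinations. The protocol and the sample tags give the layers different tissue names, so that numbers are used here. The labels name no treatment of the berries beyond the dissection. Nothing in the labels tells if the replicates are separate vines or extractions. The p-values below thus reflect the spread between these libraries alone, which may be partly technical.

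Library totals lay between 19057538 and 61782400 counts, and 3 counts, the limit that a count of 0 allows, came to between 0.0486 and 0.157 CPM. On scores of layer 1 genes and inner genes set in Granny Val, 6 of the Alachua and Supreme libraries were placed closest to a layer other than their label. Granny Val set the scores, so its own libraries could not be judged this way. Alachua layer 2 replicate 3 lay nearest the inner layers, Alachua layer 3 replicate 1 nearest layer 1, and Alachua layer 4 replicates 2 and 3 nearest layer 2. Supreme layer 1 replicate 1 lay nearest layer 2 and Supreme layer 2 replicate 1 nearest layer 1. Results on layers are given with and without these 6 libraries. They were picked by their own levels of layer genes, so leaving them out favours differences between layers. Library names begin with a number in 25 libraries and not in 11, and the unnumbered ones detected more models (16950 to 19478, against 13955 to 17956 in the numbered ones). The labels do not say what the kind of name stands for. In Granny Val and Supreme no layer 1 library is unnumbered, and layers 3 and 4 hold more unnumbered libraries than layer 2. Kind of name and layer are thus partly confounded in these cultivars. Numbered libraries alone leave a single library in each of Granny Val layers 2 and 3 and Supreme layer 4. Results among them thus rest on fewer libraries.

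Summed over the 40 models, transcripts were many times more abundant in every Alachua library than in any other. The sum was 1371.5 to 2034.6 CPM (median 1801.5) in the 12 Alachua libraries. It was 38.7 to 120.3 CPM (median 66.45) in Granny Val and 68.6 to 145.9 CPM (median 89.85) in Supreme. The largest model alone made up 23.4% to 44.8% of the sum in Alachua libraries and 23.2% to 75.0% in the others. The sum is thus weighted to the most abundant models. In the Alachua libraries between 0 and 1 of the 40 had no count. In Granny Val 10 to 29 had none (median 14.5) and in Supreme 7 to 23 (median 15.5). The number without a count moved with the kind of library name: it was 7 to 13 in the 8 unnumbered libraries of Granny Val and Supreme and 12 to 29 in the 16 numbered ones. The kinds of name are spread unevenly over the layers of these cultivars, and the part of the kind of name in this was not tested. In dissected tissue, fewer cells of a type and less RNA per cell cannot be told apart.

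The ratio of the rule ran from 429.1 at the top of the list to 2.15 at its end, with a median of 9.815. It was at least 100 in 2 models, at least 10 in 20 and at least 5 in 26. The ratio passed the limit of 40 models in small steps. The last models inside were evm.model.chr16.251, evm.model.chr19.461 and evm.model.chr18.3763, with ratios of 2.499, 2.29 and 2.15. The first models outside were evm.model.chr10.1929, evm.model.chr18.2992 and evm.model.chr15.2057, with ratios of 2.12, 2.11 and 2.08. All 40 passed the filter on low counts used in the tests, which the Alachua libraries alone were enough to bring about.

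In 27 of the 40 models, the lowest of the 12 Alachua libraries lay above the highest of the 24 libraries of the other cultivars. The same held for 27 of the 11845 models over the minimum (0.228%), and since the rule selected for this separation nothing further is read from the count. The groups overlapped in the other 13 models. Among libraries with numbered names alone, 29 of the 40 did not overlap (9 Alachua libraries against 16), beside 0.338% of the 11845 models. Among unnumbered ones 39 did not (3 against 8), beside 3.37%. Without the 6 libraries out of place, 31 did not overlap (8 against 22), beside 0.287%. These counts, too, are of values the rule used.

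**Figure D1:**
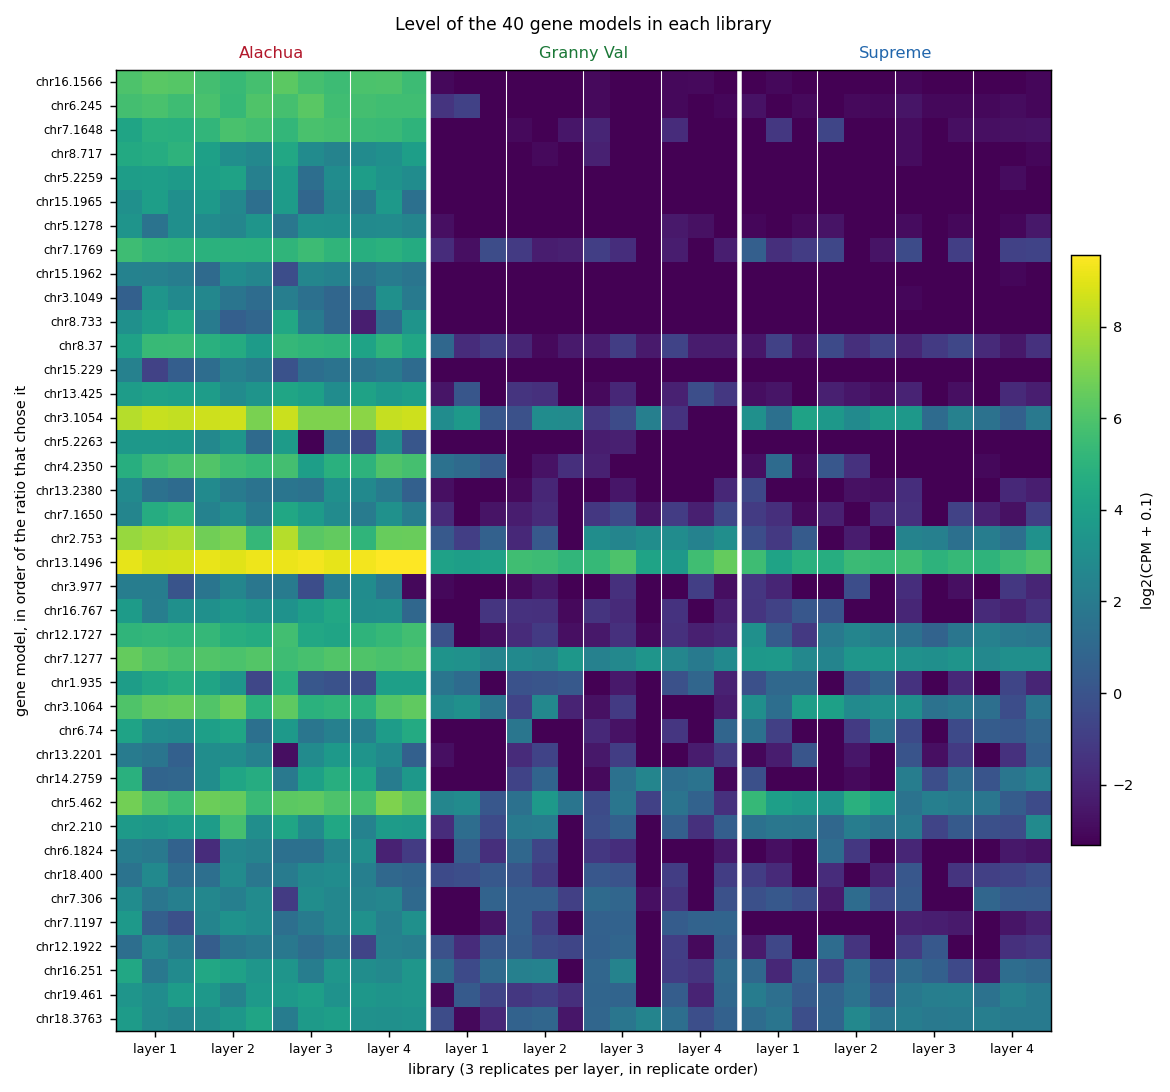
Levels of the 40 models (down the page, in order of the rule's ratio) in each of the 36 libraries (across, Alachua at the left, then Granny Val and Supreme, by layer and replicate), coloured by log2 of CPM plus 0.1. The Alachua columns are high in nearly every line. Libraries of the other cultivars are at or near 0 in most of the upper lines and vary from 0 to measurable levels in the lower ones.

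The model with the largest ratio was evm.model.chr16.1566. It had 40.86 CPM in the lowest, 57.9 CPM in the median and 78.84 CPM in the highest Alachua library, against at most 0.0254 CPM in Granny Val and 0.0214 CPM in Supreme. All Alachua libraries lay in a narrow band, and the 24 other libraries together held 7 counts against 31077 in Alachua. The next, evm.model.chr6.245, had 39.72, 52.59 and 76.45 CPM in the lowest, median and highest Alachua library, against at most 0.464 CPM in Granny Val and 0.065 CPM in Supreme. Its coefficient of variation over the 12 Alachua libraries was 0.169, close to the smallest of the 40, and its layer means lay between 50.56 and 60.22 CPM. The fourth model, evm.model.chr8.717, was less even: it had 5.36, 11.82 and 32.58 CPM in the lowest, median and highest Alachua library, against at most 0.127 CPM in Granny Val and 0.0325 CPM in Supreme. Its 3 libraries of layer 1 had 22.35, 25.45 and 32.58 CPM, the highest of the 12, followed by Alachua layer 3 replicate 1 with 21.25 CPM.

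Among the first 10, a pair lay on chromosome 7 by their identifiers. evm.model.chr7.1648 had 18.1, 39.14 and 58.66 CPM in the lowest, median and highest Alachua library, against at most 0.206 CPM in Granny Val and 0.536 CPM in Supreme. evm.model.chr7.1769 had 24.03, 31.82 and 47.38 CPM in Alachua, against at most 0.690 CPM in Granny Val and 1.39 CPM in Supreme. Both were thus detected outside Alachua, at levels under those of every Alachua library. evm.model.chr5.1278 was lower, with 2.87, 7.36 and 10.61 CPM in Alachua, against at most 0.0822 CPM in Granny Val and 0.0748 CPM in Supreme. Its layer means differed least of the 40, the highest being 1.18 times the lowest.

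Without a single count in the 24 libraries of Granny Val and Supreme were 3 models. evm.model.chr15.1965 had 1.775, 7.41 and 14.62 CPM in the lowest, median and highest Alachua library and was at least 2910-fold higher there, with the summed libraries of the other cultivars set to a floor of 3 counts. evm.model.chr8.733 had 0.1095, 3.935 and 21.81 CPM in Alachua and was at least 2870-fold higher. evm.model.chr15.229 had 0.489, 2.66 and 5.04 CPM in Alachua and was at least 987-fold higher. All 3 were detected in each of the 12 Alachua libraries, at low levels in some.

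Between 1 and 3 counts in those 24 libraries were found for 3 more models. The ratios given for them are not those of the rule. They set summed counts over summed library totals in Alachua against the same in the other cultivars, with nothing added. evm.model.chr5.2259 had 2.46, 13.29 and 17.39 CPM in the lowest, median and highest Alachua library. It had 2 counts elsewhere, a ratio of 6174 with a 95% counting interval of 1710 to 51000. evm.model.chr15.1962 had 0.734, 4.58 and 7.49 CPM in Alachua, with 1 count elsewhere, a ratio of 4693 (842 to 185000). evm.model.chr3.1049 had 1.47, 3.44 and 10.62 CPM in Alachua, with 1 count elsewhere, a ratio of 5245 (941 to 207000). The intervals cover counting error only. Under 100 counts outside Alachua were found for 13 models in all, and 6 had no count in Granny Val and 4 none in Supreme. Reads of a gene family can be split between near-identical copies or lost from them, and reads on the other strand of an overlapping gene can be included, so low counts of a single model are uncertain in both directions.

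The most abundant members lay further down the list and were also detected outside Alachua. evm.model.chr13.1496 had 417.0, 571.6 and 757.5 CPM in the lowest, median and highest Alachua library, against a median of 37.47 and at most 90.22 CPM in Granny Val and a median of 39.3 and at most 62.74 CPM in Supreme. Every Alachua library held several times the level of any other, and no library of the 36 was at 0. evm.model.chr3.1054 had 125.5, 335.7 and 402.7 CPM in Alachua, against a median of 0.918 and at most 12.13 CPM in Granny Val and a median of 6.03 and at most 17.34 CPM in Supreme. evm.model.chr2.753 had 33.89, 104.7 and 276.9 CPM in Alachua, against a median of 3.37 and at most 8.12 CPM in Granny Val and a median of 1.85 and at most 9.11 CPM in Supreme. These 3 were the members that averaged at least 100 CPM in Alachua: 582.9 ± 107.5, 283.8 ± 111.5 and 135.5 ± 82.61 CPM (SD, n = 12 libraries).

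Next in abundance were evm.model.chr5.462, at 79.93 ± 27.62 CPM, and evm.model.chr3.1064, at 64.4 ± 26.73 CPM over the 12 Alachua libraries (SD). Averages over Alachua ran from 2.766 to 582.9 CPM across the 40 with a median of 11.07 CPM; 24 were at least 10 CPM and 16 were under it. CPM are not divided by transcript length, so levels are not ranked between models beyond these counts. The 13 models whose groups overlapped averaged between 3.367 and 15.96 CPM in Alachua. Of these, evm.model.chr5.2263 had 7.20 CPM in the median Alachua library and 0 counts in Alachua layer 3 replicate 2, the only zero among the 40 models in the 12 Alachua libraries. It had at most 0.122 CPM in Granny Val and no count in Supreme. evm.model.chr1.935 had 0.571, 14.87 and 27.57 CPM in Alachua, against at most 3.095 CPM in Granny Val and 1.944 CPM in Supreme, and 4 Alachua libraries lay within the range of the others. evm.model.chr14.2759 had 1.67, 13.87 and 28.76 CPM in Alachua, against at most 5.64 CPM in Granny Val and 5.14 CPM in Supreme.

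The last members of the list were detected in most libraries outside Alachua. evm.model.chr19.461 had 5.39, 10.95 and 15.21 CPM in the lowest, median and highest Alachua library, against at most 1.90 CPM in Granny Val and 4.97 CPM in Supreme, without overlap. evm.model.chr18.3763 had 4.14, 9.19 and 18.28 CPM in Alachua, against at most 5.48 CPM in Granny Val and 6.30 CPM in Supreme, with overlap. evm.model.chr16.251 had 3.47, 10.49 and 20.83 CPM in Alachua, against at most 5.325 CPM in Granny Val and 2.51 CPM in Supreme, also with overlap. The models just outside the list overlapped too.

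Applying the rule to 24 libraries and reading the 12 libraries of the remaining replicate number gave values that the choice had not used. With replicate 1 held out, 15 of the 40 models chosen were called higher in Alachua than in both Granny Val and Supreme (adjusted p under 0.05 and at least 2-fold in each, edgeR's quasi-likelihood test with Benjamini-Hochberg adjustment), against 0.11% of 17271 models tested. With replicate 2 held out, 28 of the 40 were called, against 0.436% of 16731. With replicate 3 held out, 16 of the 40 were called (39 passed the filter), against 0.161% of 16809. Of the models chosen from the remaining libraries, 30, 37 and 31 are among the 40 members.

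In the held-out libraries the median log2 difference between Alachua and the mean of the other cultivars was 3.964, 4.478 and 4.251 for replicates 1, 2 and 3, against -0.04823, -0.02889 and 0.01511 over all models above the minimum. All 4 Alachua libraries of the held-out number lay above all 8 others in 28, 32 and 26 of the chosen models, against 0.898%, 1.17% and 0.685% of all models above the minimum. With 1 library for each layer and cultivar, the test over these 12 libraries took layer as an additive term. The 4 layers of a cultivar thus stood in for its replicates, and the labels do not tell if they came from the same berries. The p-values behind these calls do not measure the spread between replicates of a cultivar. DESeq2 called 24, 30 and 27 of the chosen models, against 0.654%, 0.855% and 0.66% of all models tested.

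The identifiers carry a chromosome and a running number; whether the numbers follow position along the chromosome is not stated in the labels. Members fell on 15 of the 20 chromosomes, 6 on chromosome 7, 4 each on chromosomes 3, 5 and 13, and 3 each on chromosomes 6, 8, 15 and 16. Another member lay within 5 running numbers of 8 members, in 4 pairs: evm.model.chr7.1648 with evm.model.chr7.1650, evm.model.chr5.2259 with evm.model.chr5.2263, evm.model.chr15.1962 with evm.model.chr15.1965, and evm.model.chr3.1049 with evm.model.chr3.1054. On chromosome 3, evm.model.chr3.1064 followed 10 numbers later. On chromosome 8, evm.model.chr8.717 and evm.model.chr8.733 were 16 numbers apart.

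On chromosome 15, the models between and just after the pair also had few counts outside Alachua. The models between, evm.model.chr15.1963 and evm.model.chr15.1964, and the next after the pair, evm.model.chr15.1966, had 271, 846 and 736 counts over the 12 Alachua libraries, against 1, 1 and 5 counts over the 24 others. They averaged 0.527, 1.57 and 1.48 CPM in Alachua and so were under the rule's minimum. The models before the pair were at similar levels in Alachua and the others: evm.model.chr15.1960 averaged 125.7 CPM in Alachua, against 159.4 CPM, and evm.model.chr15.1961 averaged 44.39 CPM in Alachua, against 39.74 CPM. Between the pair on chromosome 7, evm.model.chr7.1649 averaged 4.19 CPM in Alachua, against 1.40 CPM in the others. Before that pair, evm.model.chr7.1646 averaged 0.859 CPM in Alachua, against 2.76 CPM in the others, and evm.model.chr7.1647 averaged 8.51 CPM in Alachua, against 14.93 CPM. The model after the pair, evm.model.chr7.1651, averaged 206.3 CPM in Alachua, against 229.9 CPM in the others. Within the pair on chromosome 5 no listed model lay between, and the 3 listed models next to them had no count in any library.

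**Figure D2:**
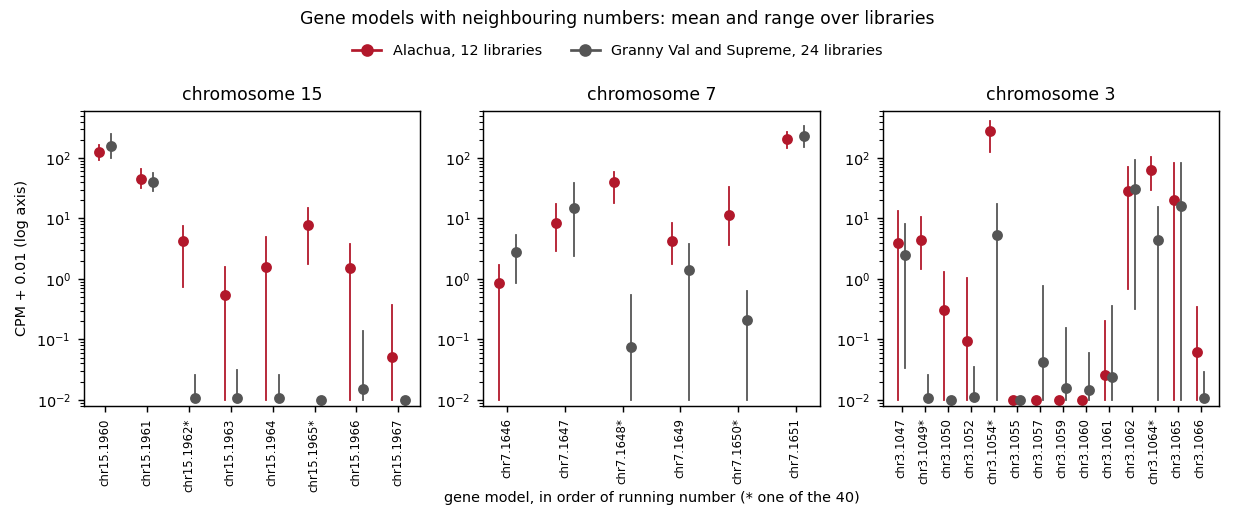
Mean (points) and range over libraries (lines) of CPM plus 0.01 on a log axis for models with neighbouring numbers on chromosomes 15, 7 and 3, in order of running number, with the 12 Alachua libraries left of the 24 libraries of Granny Val and Supreme at each model and members marked by an asterisk. On chromosome 15 the members and the models between and just after them sit higher in Alachua and near 0 in the others, while the first pair of models sits at like levels in both.

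Neighbours of all members together had a median ratio near that of all models. Over the 142 other models within 5 running numbers of a member that passed the low-count filter, the median log2 ratio of Alachua to the others was -0.1075, against -0.07794 over all 19241 models. At least 2-fold higher in Alachua were 12.0% of them, against 5.52% of all models, and at least 2-fold lower were 16.9%, against 10.7% of all. With neighbours limited to 1 running number, 27.3% of 33 models were at least 2-fold higher and 18.2% at least 2-fold lower, and within 10 running numbers 8.17% were higher and 16.7% lower.

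Across the layers of Alachua, layer means of most members lay within 2 times each other; the rule takes the lowest layer mean and so favours even models. The highest layer mean was 1.612 times the lowest in the median member, against 1.487 over all models above the minimum, with a range of 1.18 to 6.31. It was over 2 in 12 members and under 1.5 in 15. The highest layer was layer 1 in 16 members, layer 2 in 12, layer 3 in 7 and layer 4 in 5. Over the 12 Alachua libraries the coefficient of variation had a median of 0.4837 in the members, against 0.322 over all models above the minimum.

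**Figure D3:**
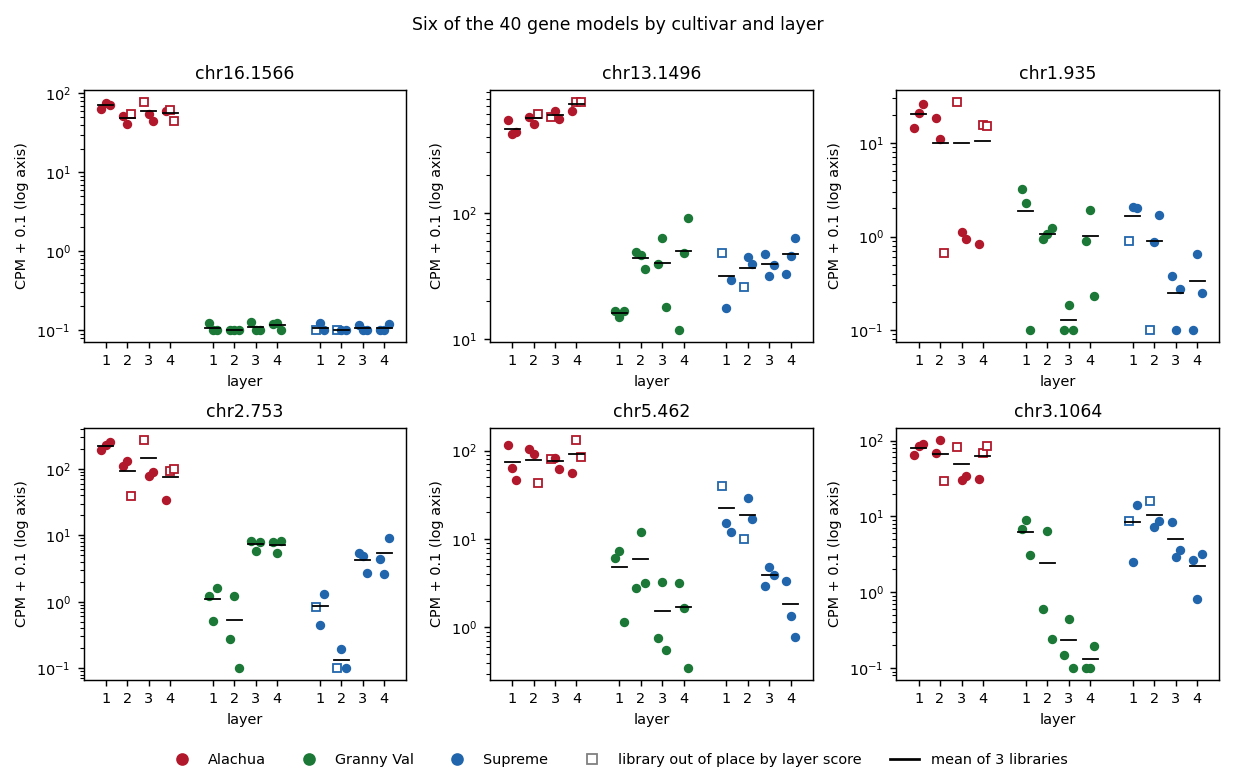
CPM plus 0.1 on a log axis in every library for 6 members, with Alachua left, then Granny Val and Supreme, and layers 1 to 4 in each; points are libraries, bars the means of 3 libraries, and open squares the 6 libraries out of place. In 5 of the 6 panels all Alachua points lie above all others; in evm.model.chr1.935 the Alachua points split into a high and a low group.

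Tested in edgeR over all 19241 models, 1 member was called between layers 1 and 2 of Alachua, against 3.59% of all models. The rule used the same layer means and favours even models, so nothing is read from the member counts in this and the following Alachua layer contrasts. evm.model.chr7.1650 had 5.82, 25.12 and 32.75 CPM in the 3 libraries of layer 1, against 5.08, 8.11 and 3.67 CPM in layer 2. Layer 1 replicate 1 was within the range of layer 2, so the groups overlapped. The log2 fold change was 1.90 (SE 0.49, adjusted p 0.028 by edgeR), and over 14 alternatives the adjusted p (edgeR or DESeq2) ran from 0.025 to 0.32. SE here and below is approximate, back-calculated from the log2 fold change and the F statistic of the test. The call was lost on leaving out any 1 of Alachua layer 1 replicates 2 and 3 and layer 2 replicates 1, 2 and 3, with DESeq2, without the libraries out of place, among numbered libraries alone, and with a replicate block within cultivar (adjusted p 0.052 by edgeR).

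No member was called between layers 2 and 3 (0 of 40), where edgeR called 0.0% of all models. In edgeR 1 member had an unadjusted p under 0.05 there, against 1225 of 19241 models. DESeq2 called 0 members, against 156 of 19202 models. Between layers 3 and 4, edgeR called 0 members, against 0.0052% of all models. An unadjusted p under 0.05 was found for 2 members, against 1820 of 19241 models. DESeq2 called 0 members, against 540 of 19202 models. Between the mean of layers 1 and 2 and that of layers 3 and 4 of Alachua, edgeR called 0 members and 0.0% of all models. An unadjusted p under 0.05 was found for 0 members, against 1391 of 19241 models. DESeq2 called 0 members, against 347 of 18829 models. The 4 Alachua libraries out of place enter these contrasts. Between layers 1 and 2, with all libraries, DESeq2 called 0 members, against 1078 of 18829 models.

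Without the 6 libraries out of place, 4 members were called higher in layers 1 and 2 than in layers 3 and 4 of Alachua, against 8.63% of all models, with 5 outer and 3 inner libraries left. With all libraries, edgeR called 0.0% of all models. The removal was made by levels of outer and inner genes and so favours this contrast. The p-values take no account of that. evm.model.chr1.935 had a log2 fold change of 4.41 (SE 0.67, adjusted p 4.059e-05 by edgeR), evm.model.chr5.2263 of 3.43 (SE 0.68, adjusted p 0.004458), evm.model.chr8.733 of 3.53 (SE 0.99, adjusted p 0.0465) and evm.model.chr2.753 of 1.63 (SE 0.38, adjusted p 0.004968). In all 12 libraries, evm.model.chr1.935 had between 14.48 and 25.67 CPM in the libraries of layer 1, 18.18, 10.92 and 0.571 CPM in layer 2, 27.57, 1.01 and 0.850 CPM in layer 3 and 0.723, 15.29 and 15.25 CPM in layer 4. Its low outer library and its 3 high inner libraries were those out of place. Between layers 2 and 3 alone, evm.model.chr1.935 was called without those libraries (log2 fold change 4.06, SE 0.79, adjusted p 0.0026 by edgeR), against 2.57% of all models, and between layers 1 and 2 edgeR called 0 members without them (5 with an unadjusted p under 0.05; DESeq2, run with all libraries, called 0), against 4.7% of all models.

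In Granny Val and Supreme, where the rule held layer means low, the outer and inner layers differed in some members. This comparison was chosen after the values were seen. Unnumbered libraries were more frequent among the inner layers than among the outer ones. With the kind of name as a term, 5 members were called higher and 4 lower, against 3486 of 19241 models called. Of the 40, 5 were called higher and 4 lower in layers 1 and 2 than in layers 3 and 4, against 20.0% of all models called. Of the 40, 13 had under 100 counts in these 24 libraries, 3 of them 0, and passed the filter through Alachua. Differences of those with few or no counts could not be estimated, and no median over the members is given. All members called had at least 100 counts there, so the share of the 40 is not compared with that of all models. Higher were evm.model.chr4.2350 (log2 fold change 6.11, SE 1.82, adjusted p 0.009667 by edgeR), evm.model.chr3.1064 (3.60, SE 0.56, adjusted p 8.014e-06), evm.model.chr1.935 (2.69, SE 0.98, adjusted p 0.02955), evm.model.chr3.1054 (2.61, SE 0.51, adjusted p 0.0001706) and evm.model.chr5.462 (2.41, SE 0.38, adjusted p 1.159e-05). The call of evm.model.chr4.2350 was lost without Granny Val layer 2 replicate 3 and without Supreme layer 1 replicate 2, and its adjusted p ran from 5.9e-10 to 0.22 over 32 alternatives. The call of evm.model.chr1.935 was lost without Granny Val layer 1 replicate 1, Supreme layer 2 replicate 3, Supreme layer 3 replicate 2 or Supreme layer 4 replicate 3, one at a time, and its adjusted p ran from 0.00049 to 0.22.

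Lower in the outer layers of Granny Val and Supreme were evm.model.chr14.2759 (log2 fold change -5.65, SE 1.28, adjusted p 0.0009658 by edgeR), evm.model.chr2.753 (-4.13, SE 0.46, adjusted p 7.988e-08), evm.model.chr18.3763 (-1.24) and evm.model.chr19.461 (-1.12, but 1.179 among numbered libraries alone, where it was not called). Among numbered libraries alone evm.model.chr3.1064, evm.model.chr4.2350 and evm.model.chr1.935 were not called. That fit had a single library in each of Granny Val layers 2 and 3 and Supreme layer 4. Over these cultivars evm.model.chr14.2759 had at most 1.66 CPM in the outer libraries and between 0.0190 and 5.64 CPM in the inner ones, with overlap.

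The difference between outer and inner layers was itself different in Alachua and the others for 3 members, against 1.8% of all models. For the members with few or no counts outside Alachua it could not be estimated. The interaction was also chosen after the values were seen. The rule used the layer means on both sides of it, favouring even models in Alachua and low ones elsewhere. Nothing is therefore read from the member counts, and the p-values take no account of that choice. Without the 6 libraries out of place 1 member was called, against 0.0585% of all models, and DESeq2, with all libraries, called 7, against 5.88%. evm.model.chr2.753 had 38.44, 161.5 and 254.6 CPM in the lowest, median and highest outer library of Alachua and 33.89, 91.54 and 276.9 CPM in the inner ones. In Granny Val it had 0, 0.759 and 1.52 CPM in outer libraries and a median of 7.80 and at most 8.12 CPM in inner ones, and in Supreme 0, 0.218 and 1.22 CPM in outer libraries and 2.48, 4.50 and 9.11 CPM in inner ones. Every inner library of Granny Val and Supreme lay above every outer one, whereas in Alachua the groups overlapped with all libraries in. Without the 6 libraries out of place, its level in Alachua was higher in the outer layers (log2 fold change 1.63, SE 0.38, adjusted p 0.004968 by edgeR).

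For evm.model.chr2.753 the outer minus inner difference was larger in Alachua by 4.54 on the log2 scale (SE 0.62, adjusted p 0.0003837 by edgeR), and it was 5.68 without the 6 libraries out of place (adjusted p 1.407e-05). Over 44 alternatives the call was kept in 44 and the adjusted p ran from 1.1e-09 to 0.042. evm.model.chr3.1064 had an interaction of -3.23 (SE 0.76, adjusted p 0.02004), and evm.model.chr5.462 of -2.57 (SE 0.57, adjusted p 0.01477). Both were called higher in the outer layers outside Alachua, and without the libraries out of place the values were -2.08 (adjusted p 0.7409) and -1.88 (adjusted p 0.5006). The adjusted p ran from 0.0011 to 0.74 for evm.model.chr3.1064 and from 0.003 to 0.50 for evm.model.chr5.462 over 44 alternatives each. Left out one at a time, Alachua layer 3 replicate 1 ended both calls, and Alachua layer 4 replicate 3 and Granny Val layer 2 replicate 2 ended that of evm.model.chr3.1064. Both calls were lost among numbered libraries alone, and that of evm.model.chr5.462 with the kind of name as a term.

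In evm.model.chr5.462, outer libraries held 43.12, 77.0 and 114.1 CPM in Alachua (lowest, median, highest) and inner ones 55.08, 81.87 and 133.1 CPM. Outer libraries of Granny Val held 1.05, 4.52 and 11.94 CPM and inner ones 0.247, 1.10 and 3.18 CPM, while outer libraries of Supreme held 10.0, 15.93 and 39.82 CPM and inner ones 0.673, 3.07 and 4.68 CPM. The outer and inner libraries of Supreme did not overlap, and those of Granny Val and of Alachua did. In evm.model.chr3.1064, outer Alachua libraries held 29.43, 76.09 and 103.2 CPM and inner ones 30.32, 51.56 and 85.33 CPM. Outer libraries of Granny Val held 0.140, 4.66 and 8.745 CPM and inner ones 0, 0.0254 and 0.349 CPM, while outer libraries of Supreme held 2.44, 8.545 and 15.74 CPM and inner ones 0.712, 2.99 and 8.39 CPM. In all 3 cultivars its outer and inner libraries overlapped.

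**Figure D4:**
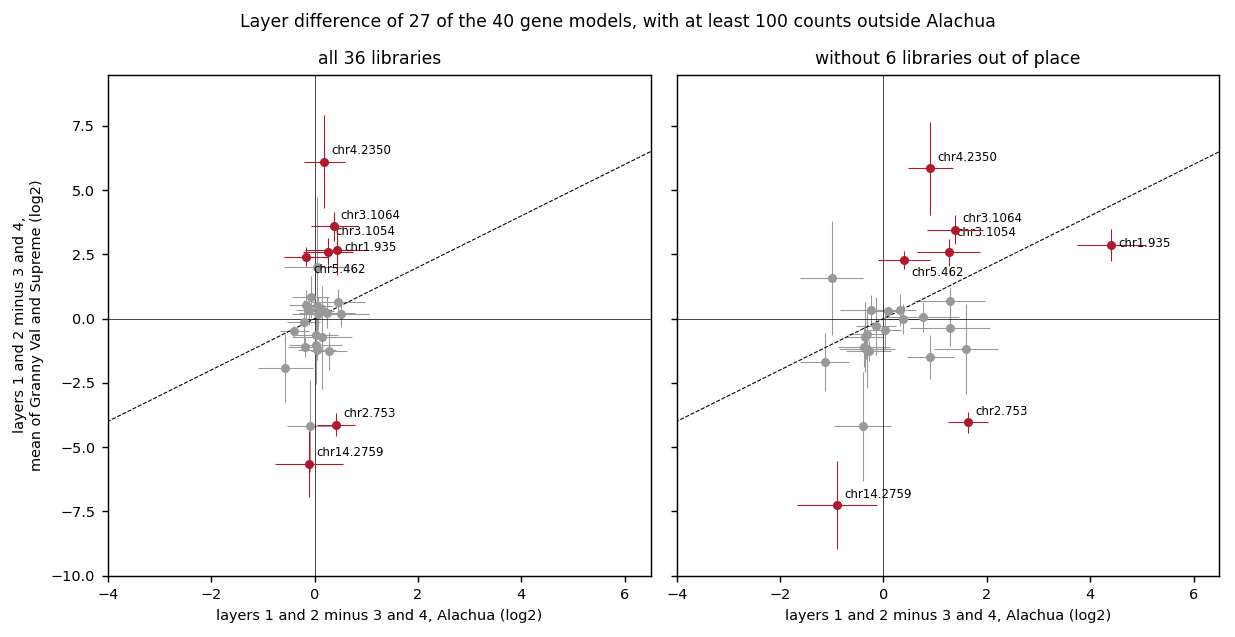
Fitted log2 difference of layers 1 and 2 minus 3 and 4 in Alachua (horizontal axis) against the same in the mean of Granny Val and Supreme (vertical axis). Shown are the 27 members with at least 100 counts outside Alachua, with all 36 libraries at the left and without the 6 out of place at the right. Bars are approximate standard errors, back-calculated from the log2 difference and the F statistic. The dashed line marks equal differences, and members labelled by name are red. With all libraries the points lie near 0 in Alachua and spread in the others; without the 6 libraries evm.model.chr1.935 lies at 4.41 in Alachua.

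The rule divides by the highest layer mean of Granny Val and Supreme and so holds both low. Their difference is drawn from values the rule used, and nothing is read from the member counts. Averaged over the 4 layers, 6 members were called lower in Granny Val than in Supreme and 0 higher (edgeR; DESeq2 called 7 lower and 3 higher, against 7.4% of all models), against 5.65% of all models called by edgeR. The 13 members with under 100 counts in these libraries are among the 40 and could hardly be called. The mean in Supreme was above that in Granny Val in 22 members and below it in 15. In members with few counts that order rests on single reads, so nothing is read from this tally either. evm.model.chr12.1727 had 0, 0.146 and 0.817 CPM in the lowest, median and highest library of Granny Val, against 0.335, 3.40 and 8.91 CPM in Supreme, with 18.47, 34.1 and 51.31 CPM in Alachua. Its log2 fold change between Granny Val and Supreme was -4.09 (SE 0.45, adjusted p 1.118e-08 by edgeR). Some libraries of the green and the thin-skinned cultivar overlapped, but all lay under every Alachua library.

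The other members lower in Granny Val were evm.model.chr3.1064, with a log2 fold change of -3.22 (SE 0.57, adjusted p 0.0002067 by edgeR), evm.model.chr19.461 with -1.97 (SE 0.35, adjusted p 0.0002402), evm.model.chr3.1054 with -1.84 (SE 0.53, adjusted p 0.02198), evm.model.chr18.3763 with -1.36 (SE 0.36, adjusted p 0.01078) and evm.model.chr5.462 with -1.19 (SE 0.38, adjusted p 0.0369). A fit with numbered or unnumbered names as a term called 7, against 7.28% of all models. Among numbered libraries alone there were 5, against 6.32%, evm.model.chr3.1054 being lost. That call was also lost without Supreme layer 3 replicate 1, and its adjusted p ran from 0.0018 to 0.40 over 32 alternatives. The call of evm.model.chr5.462 was lost on leaving out 1 of 11 of the 24 libraries and without the libraries out of place, with adjusted p from 0.0054 to 0.10. Those 11 were Granny Val layer 1 replicate 3, layer 2 replicates 1 and 3, layer 3 replicates 1 and 3 and layer 4 replicates 2 and 3, and Supreme layer 1 replicate 1, layer 2 replicate 2, layer 3 replicate 2 and layer 4 replicate 1.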

How the data were processed

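Polyadenylated RNA of 36 libraries was sequenced. The authors deposited raw read counts for each gene model, with cutadapt, STAR, HTSeq 0.11.2, SAMtools and DESeq2 named per the submitters' processing notes, without role or order; neither genome build nor use of strand in counting is stated there. The 5 special lines of each table were left out of totals; reads outside any model were 7.733% to 14.555%. Identical libraries were not found (0 pairs); replicates of a group varied 94.94 to 1284.64 times as much as sampling gives.

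Members and tests were chosen with earlier results of these data known. CPM use library sums. Log2 fold changes come from edgeR 4.0.16 in R 4.3.3 (TMM scaling, filterByExpr by group leaving 19241 models, 12 group means over 36 libraries, quasi-likelihood F test, Benjamini-Hochberg adjustment over all models tested). A model was called at adjusted p under 0.05 and at least 2-fold. SE is the absolute log2 fold change over the square root of F, an approximation that was not fitted directly. The scripts were tested on simulated data. Alternatives were DESeq2 1.42.0, other scaling and filters, a replicate block, library-name kind, out-of-place libraries and leave-one-out. For layer scores, the 948 models raised in layer 1 of Granny Val and the 418 raised in its layers 3 and 4 were averaged per library, and each library was placed at the nearest Granny Val layer mean. The outer against inner comparisons outside Alachua, their interaction and the block within cultivar were added after seeing the data.

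Named in the text are the 10 members with the largest ratio, the 5 with the highest Alachua mean, those beside the limit of 40, up to 5 called per contrast and direction, and members within 5 running numbers of another; others were chosen after their values were seen. No sequences, names or marker lists were used, because the identifiers matched 0 entries of the gene table of the Carlos assembly.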

Additional observations from a re-analysis of the deposited data

Results flagged for a closer look

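In 3 members the difference between layers 1 and 2 and layers 3 and 4 was not the same in Alachua as in the mean of Granny Val and Supreme, by the interaction in edgeR's quasi-likelihood test. On the log2 scale the difference was 4.54 for evm.model.chr2.753 (adjusted p 0.0003837), -3.23 for evm.model.chr3.1064 (adjusted p 0.02004) and -2.574 for evm.model.chr5.462 (adjusted p 0.01477). The call of evm.model.chr2.753 was kept in all 44 alternatives. Those of evm.model.chr3.1064 and evm.model.chr5.462 were lost without the 6 libraries out of place (adjusted p 0.7409 and 0.5006 by edgeR), without Alachua layer 3 replicate 1 and among numbered libraries alone, with ranges over the alternatives of 0.0011 to 0.74 and 0.003 to 0.50. The comparison was chosen after the values were seen, and both of its sides are layer means that the rule used. The p-values take no account of either choice.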

How the results depend on the processing

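Of the 40 members, 30, 37 and 31 were kept without replicate 1, 2 or 3 and 35 to 40 without any 1 library, a range of 30 to 40. Kept were 40 and 38 with pseudocounts of 0.01 and 1, 35 and 27 with minimums of 1 and 5 CPM, 39 with TMM-scaled CPM, 31 with group medians, 34 without the 6 libraries out of place, 35 among numbered libraries and 40 with the low-count filter. The minimum of 5 CPM drops by definition the members whose lowest Alachua layer mean is under it. Under all 12 of these other rules, counting those without a replicate but not those without 1 library, 21 were kept. Members called between layers 1 and 2 of Alachua were 0 with a replicate block within cultivar, without the out-of-place libraries, among numbered libraries and with DESeq2, and 0 to 2 leaving out 1 library. Without the out-of-place libraries 1 was called between layers 2 and 3 and 4 between outer and inner layers; leave-one-out gave 0 to 0 in both and between layers 3 and 4. Between Granny Val and Supreme DESeq2 called 10, against 1393 of 18829 models, and leave-one-out gave 5 to 6. Outside Alachua leave-one-out gave 8 to 10 between outer and inner layers, and evm.model.chr19.461 turned to 1.179 among numbered libraries, where it was not called. The interaction was called in 1 member without the out-of-place libraries, 1 among numbered ones, 7 with DESeq2 and 1 to 4 in leave-one-out. DESeq2 called 24 of the models chosen without replicate 1 and 27 without replicate 3. Within 1 running number 27.3% of neighbours were at least 2-fold higher and 18.2% lower, and within 10 these were 8.17% and 16.7%. Member counts from leave-one-out and from numbered libraries stand here without shares over all models, so nothing is read from them about the members. Apart from the members that the minimum of 5 CPM drops by definition, the cause of these changes was not tested. For named members, 583 of 626 values under alternatives kept direction and call, 42 lost the call and 1 reversed.

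Replicate numbers did not pair the libraries in general: 4 of 18 same-numbered pairs of Alachua layers had a correlation of deviations over 0.1 (-0.416 to 0.423), 3 of 18 of Granny Val layers (-0.317 to 0.309), 3 of 18 of Supreme layers (-0.509 to 0.12), and 4 of 12 between Granny Val and Supreme (-0.087 to 0.356). Layers 2 and 3 of Granny Val were an exception, with 0.259, 0.294 and 0.309 in replicates 1, 2 and 3. With the replicate block the members called were 1, 0, 0 and 0 in the Alachua layer contrasts, against 651, 0, 0 and 0 of 19241 models. Between Granny Val and Supreme they were 6, against 1046 models. Outside Alachua they were 9, against 3782, and for the interaction 3, against 292. The member counts were the same as without the block, and nothing is read from them about the members.

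A count of 0 in a single library allows a level of up to 0.0486 to 0.157 CPM, depending on its total.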
